A study of Homo sapiens with 3 samples.

Results

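The genes described here are SPDEF, AGR2 and VIM, which mark luminal secretory and mesenchymal identity in breast cells. They were chosen by name, with all probe sets that the platform annotation gives them, which made 3 of the 14884 genes named on the array and 5 probe sets. SPDEF and AGR2 had 1 probe set each and VIM had 3. The choice was made with the values of these arrays known, so the members' differences are given as a description, with no test.

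Expression was measured on whole-transcript arrays in MDA-MB-231, an established triple-negative breast cancer line with a mesenchymal character. The 3 groups were a control given 1% DMSO, cells given CFX at 10 µM and cells given Mt-CFX at 10 µM, each for 72 h. Ciprofloxacin, named in the title of the series, is an antibiotic of the fluoroquinolone class, and Mt-CFX is known here by its code name alone, so no structural difference is stated. The labels state a DMSO content for the control only, so an effect of the solvent cannot be told apart from that of a compound. With 1 array for each group (n = 1) there was no replicate error, so neither a p-value nor an interval can be given and the spread between cultures is unknown. In bulk RNA such as this, fewer cells of a kind and less RNA per cell cannot be told apart.

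SPDEF is a transcription factor of the ETS family found in luminal and secretory epithelium, where it acts in the maturation of secretory cells. Its DNA-binding domain differs from that of most family members in its preference for a GGAT core over GGAA. AGR2 is a protein disulphide isomerase of the endoplasmic reticulum that takes part in the folding of mucins, and it is a marker of luminal, hormone-receptor-positive breast cancer. VIM encodes vimentin, the intermediate filament protein of mesenchymal cells, which replaces a keratin-dominated filament network in epithelial-to-mesenchymal transition.

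The promoters of SPDEF and AGR2 are shown because both genes had their lowest value with Mt-CFX and because the GGAT core is the letter pattern that SPDEF prefers. Each runs from 250 bases before to 50 bases after the gene's start, as RefSeq gives it for GRCh38.p14, and all 3 members had an entry. Capitals mark GGAT on either strand, which reads as ATCC on the opposite one. The SPDEF window is chr6:34556280-34556579 on the minus strand and the AGR2 window is chr7:16804950-16805249 on the minus strand.
SPDEF promoter: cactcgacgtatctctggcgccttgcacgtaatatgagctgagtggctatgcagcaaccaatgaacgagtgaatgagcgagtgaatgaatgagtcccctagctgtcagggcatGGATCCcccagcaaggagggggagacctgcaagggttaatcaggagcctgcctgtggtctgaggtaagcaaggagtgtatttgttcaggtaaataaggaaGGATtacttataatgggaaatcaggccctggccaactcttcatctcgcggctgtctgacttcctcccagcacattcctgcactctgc
AGR2 promoter: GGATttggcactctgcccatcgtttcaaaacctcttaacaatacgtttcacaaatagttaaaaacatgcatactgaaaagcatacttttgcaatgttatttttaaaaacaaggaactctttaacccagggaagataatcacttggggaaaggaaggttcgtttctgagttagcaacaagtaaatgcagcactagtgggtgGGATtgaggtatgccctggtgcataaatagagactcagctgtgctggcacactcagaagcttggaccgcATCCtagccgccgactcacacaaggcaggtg
With the first transcribed base counted as 0, the matches in SPDEF began at -137, -135 and -37. Those at -137 and -135 overlap as the palindrome of the opposite strands. The matches in AGR2 began at -250, -50 and 19. The VIM window on the plus strand of chromosome 10 held 0 matches. GGAT is common, since 76.5% of the 35116 promoter windows of the same length hold it on at least 1 strand. A match is only a stretch of letters, and these arrays hold no measurement of binding.

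SPDEF was the member with the widest difference. Its value was 6.33 log2 on the control array, 6.01 on the CFX array and 5.03 on the Mt-CFX array, so the arrays stood in the order control, CFX, Mt-CFX. Against the control, SPDEF was at 0.405 of the level with Mt-CFX, a log2 difference of −1.31. With CFX it was at 0.800 of the control level, a log2 difference of −0.32. Set directly against CFX at the same dose and time, Mt-CFX had a log2 difference of −0.98, or 0.506 of the CFX level. All 3 SPDEF values lay above the median of all values on the arrays, 3.89 log2, which served as the floor below which a value was taken as uncertain.

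AGR2 stood in the same order at a lower signal. Its value was 4.25 log2 in the control, 4.09 with CFX and 3.65 with Mt-CFX. The log2 difference from the control was −0.59 with Mt-CFX, or 0.663 of the control level, and −0.16 with CFX, or 0.898 of it. Mt-CFX against CFX gave −0.44, or 0.738 of the CFX level. The Mt-CFX value lay below the floor, and AGR2 passed the filter on low values through its control and CFX arrays. That value, 3.65209 before rounding, was held by 616 probe sets on the Mt-CFX array, AGR2 included, by 610 on the control array and by 600 on the CFX array. On all 3 arrays together, 496 probe sets had it throughout. AGR2 on the Mt-CFX array therefore sat at a value where probe sets have no order among themselves, and the size of its difference is uncertain. The control and CFX values of AGR2, and all 3 values of SPDEF, were held by no other probe set on their array.

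**Figure D1:**
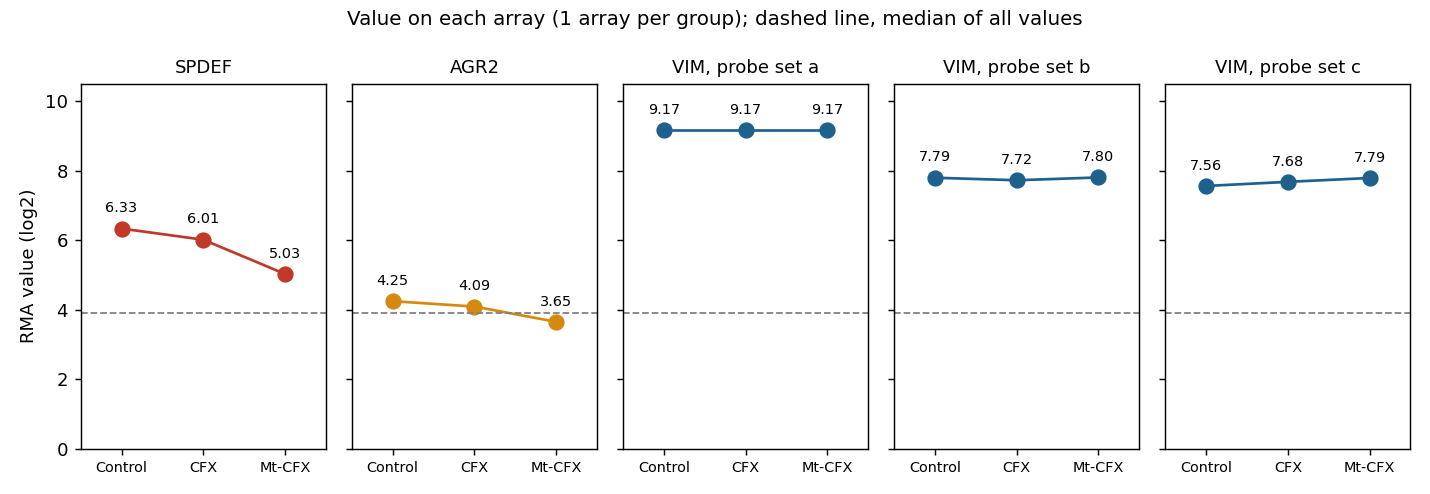
RMA values in log2 (y axis) of the 5 probe sets on the control, CFX and Mt-CFX arrays (x axis), 1 array per point, with the median of all values, 3.89, as a dashed line. SPDEF steps down from 6.33 to 5.03 and AGR2 from 4.25 to 3.65, which is below the line, while VIM probe set a stays at 9.17.

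VIM gave the same value on every array at its strongest probe set, 9.17 log2 with control, CFX and Mt-CFX alike, so each of its 3 differences was 0.00. How a value comes to be exactly equal on all arrays is not given in the sources used here, so this and the other equal values below may not be a measured lack of change. The other VIM probe sets were not level. One read 7.79 in the control, 7.72 with CFX and 7.80 with Mt-CFX, with log2 differences of −0.07 for CFX and 0.01 for Mt-CFX over control. The last read 7.56, 7.68 and 7.79 in the same order, with 0.12 for CFX and 0.23 for Mt-CFX over control. The Mt-CFX value of this last probe set was held by 10 probe sets on that array. Between the compounds, the VIM probe sets differed by 0.00, 0.08 and 0.11 log2. None of the VIM probe sets was lower with Mt-CFX than in the control, and the largest VIM difference, 0.23 log2, is 1.17-fold.

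The VIM probe sets also differed in where they stand in the platform's numbering, which runs along chromosomes and strands. RefSeq places VIM on the plus strand of chromosome 10. Of the 10 nearest numbered probe sets that carry another gene of known strand on that chromosome, 10 belonged to plus-strand genes for the strongest VIM probe set. For each of the other VIM probe sets, 9 of the 10 belonged to minus-strand genes. The SPDEF and AGR2 probe sets each had 10 of 10 neighbours on the strand of their gene, which is the minus strand for both. Over 11163 named probe sets that could be placed in this way, 90.7% had at least 9 neighbours on their gene's strand and 2.61% had at most 1. RefSeq also lists VIM-AS1, a long non-coding RNA on the minus strand that overlaps VIM, and 0 probe sets were named for it. Which strand these other VIM probe sets read was not tested.

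The members were set beside the 8868 protein-coding genes that reached the floor on at least 1 array, which served as the background. Of these, 0.259% were at least 2-fold lower with Mt-CFX than in the control, and SPDEF was the only member among them. At 1.5-fold the share was 1.25%, and both SPDEF and AGR2 were inside it, although AGR2, at −0.58 log2, fell short once the arrays were set to 1 median. Since these contrasts chose the members, nothing is read from the counts. In order of the difference, 5 genes were lower than SPDEF and 104 were lower than AGR2.

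With CFX, 0 genes were 2-fold lower than in the control and 0.101% were 1.5-fold lower, and no member was among the latter. There, 65 genes were lower than SPDEF and 302 were lower than AGR2. Between the compounds, 0.124% of genes were 2-fold lower and 1.03% were 1.5-fold lower with Mt-CFX. SPDEF lay just short of 2-fold, with 12 genes lower, and passed 1.5-fold, while AGR2 passed neither, with 187 genes lower. With 1 array per compound, the like direction of CFX and Mt-CFX at SPDEF and AGR2 rests on the same control array. The strict order of control over CFX over Mt-CFX held for 476 genes, or 5.37% of the background.

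**Figure D2:**
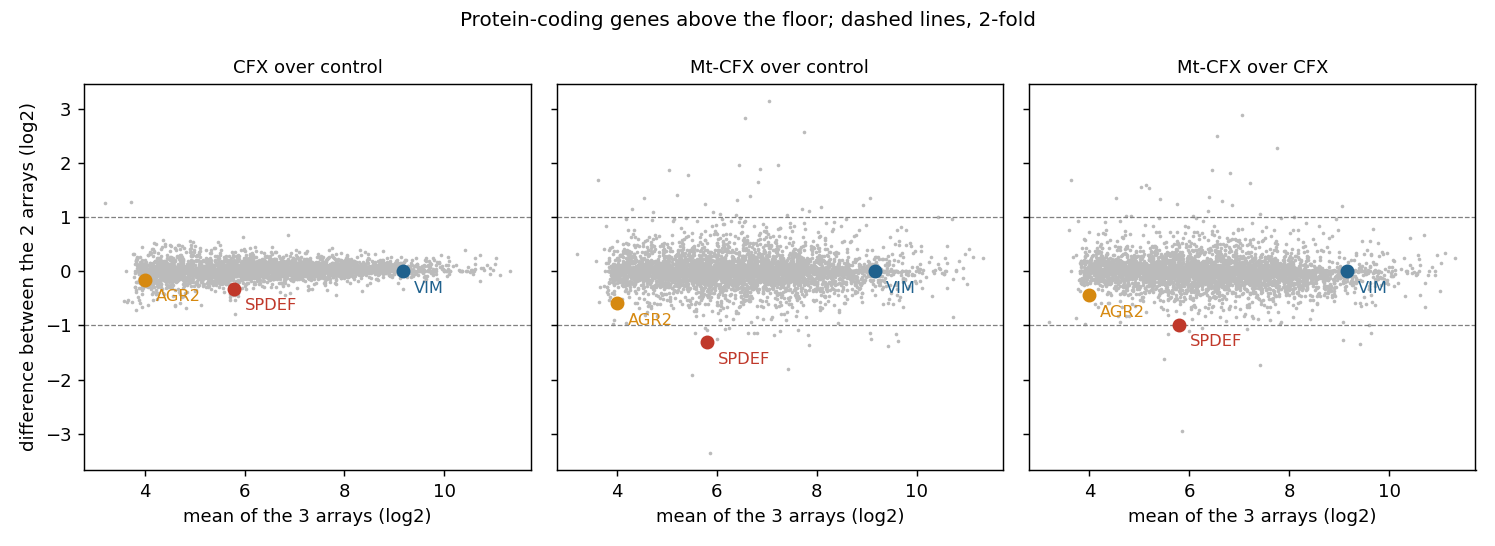
Difference between 2 arrays in log2 (y axis) against the mean of the 3 arrays in log2 (x axis) for 8868 protein-coding genes, 1 panel per comparison, with 2-fold as dashed lines. SPDEF lies below the 2-fold line for Mt-CFX over control at −1.31 and at its edge for Mt-CFX over CFX at −0.98, AGR2 lies at the low-signal end, and VIM lies on 0 in each panel.

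The members were also set beside genes of like signal. Since the members were chosen with these values known, nothing is read from these shares either. Among 2277 genes with a mean between 5 and 6 log2, where SPDEF falls, 7 were at least 2-fold lower with Mt-CFX, or 0.307%. Among the 255 genes between 3 and 4 log2, where AGR2 falls at its upper edge, 3 were at least 1.5-fold lower, or 1.18%, and 0 were 2-fold lower. In the adjoining range of 4 to 5 log2, 13 of 2267 genes were at least 1.5-fold lower, or 0.573%. Genes with a mean below the floor of 3.89 log2 entered the background only through their higher arrays. The share between 3 and 4 log2 therefore depends on the filter and is no fair background for AGR2. Equal values on all 3 arrays, as VIM had at its strongest probe set, held for 45.3% of the background genes, but for fewer at high signal. Of the 188 genes with a mean between 9 and 10 log2, 19 had equal values, or 10.1%, and VIM was one of these. The value of the strongest VIM probe set was held by no other probe set.

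**Figure D3:**
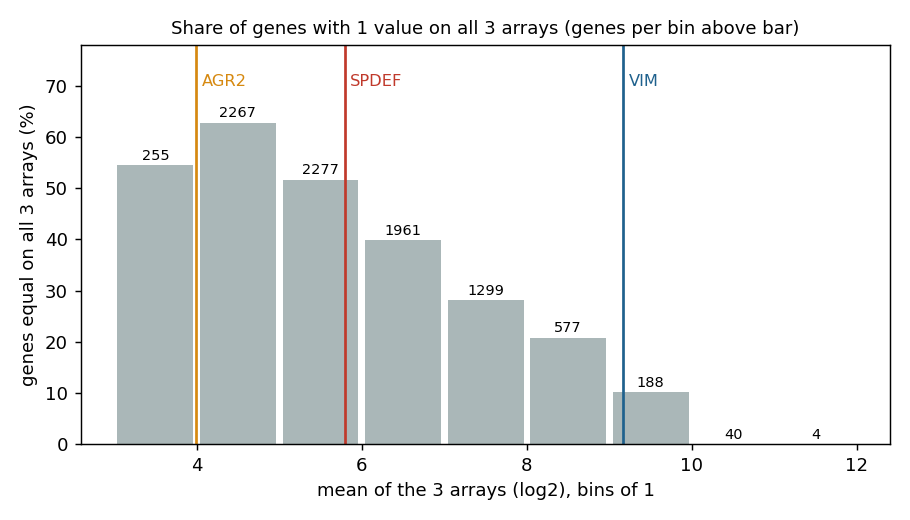
Percentage of protein-coding genes with 1 value on all 3 arrays (y axis) by mean signal in bins of 1 log2 (x axis), with the number of genes over each bar and the means of AGR2, SPDEF and VIM as vertical lines. The share drops from 62.8% between 4 and 5 log2 to 10.1% between 9 and 10 log2, where VIM lies.

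The labelled cell type was set against its markers. All 6 mesenchymal markers named on the array, VIM, CD44, AXL, MSN, FN1 and ZEB1, reached the floor. Of 8 named luminal markers 7 reached it as well, and the exception was the progesterone receptor gene PGR, at 2.39 log2 on every array. The estrogen receptor gene ESR1 reached it on the CFX array alone, at 3.92 log2 against 3.81 on the others. CD14 and PECAM1, the only named markers of leukocytes and endothelium in the list, stayed below the floor on every array. The floor was reached by 8868 of the 11916 protein-coding genes, so reaching it says little about level. On the control array the mesenchymal markers ran from 6.38 (ZEB1) to 10.97 log2 (AXL). The luminal markers ran from 2.39 (PGR) to 8.36 log2 (KRT18, at the probe set used), with KRT19 next at 6.12. The 10 named probe sets nearest in number to that KRT18 probe set belong to genes of chromosome 3, whereas KRT18 lies on chromosome 12. The other KRT18 probe set read 5.72 on the control array, so the top of the luminal range is uncertain.

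Genes that act with SPDEF and AGR2 in secretory epithelium were mixed. Of 43 genes in that list, which includes AGR2, 29 were named and 22 reached the floor. With Mt-CFX 10 of the 22 were lower than in the control, 4 were higher and 8 were equal, with a median of 0.00. Over all genes 23.2% were lower, 23.9% higher and 52.9% equal, with a median of 0.00. With CFX 10 were lower, 3 were higher and 9 were equal, against 15.0% lower, 25.8% higher and 59.2% equal over all genes. AGR2, which was chosen with these values known, is among the 10 lower genes with each compound. The lowest member with Mt-CFX was GALNT5, which encodes a glycosyltransferase that starts mucin-type O-glycans. It read 7.07 in the control, 6.85 with CFX and 6.13 with Mt-CFX, a log2 difference of −0.94, so it stood in the same order as SPDEF and AGR2. The pioneer factor gene FOXA2 read 7.69, 7.47 and 7.16, in that order too, while FOXA1 had 1 value, 4.36, on all arrays and FOXA3 was also equal. The FOXA1 value was a repeated one, held by 289 probe sets on the control array, 283 on the CFX array and 288 on the Mt-CFX array.

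XBP1 and ERN1 stood opposite to AGR2 with Mt-CFX. ERN1 encodes the endoplasmic reticulum stress sensor IRE1, which splices the XBP1 mRNA, and XBP1 drives the expansion of the secretory apparatus. XBP1 read 7.16 in the control, 7.23 with CFX and 7.99 with Mt-CFX, a log2 difference of 0.83 between Mt-CFX and control. ERN1 read 5.17, 5.05 and 5.77, a log2 difference of 0.60. Both were over 1.5-fold higher with Mt-CFX than in the control, as were 1.45% of the background genes. The trefoil peptide gene TFF1 was lower by 0.30 log2 with each compound, at a value that 369 probe sets shared on the CFX array, and TFF3 was equal at 4.93. CREB3L1, a transcription factor of secretory cells, read 5.82 in the control and 5.65 with both compounds. AGR3, the close relative of AGR2, stayed at 1.18 on all arrays, below the floor.

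Of the luminal identity genes other than SPDEF and AGR2, 20 reached the floor. Between Mt-CFX and control 15 were equal, 3 were lower and 2 were higher, with a median of 0.00, beside 52.9%, 23.2% and 23.9% over all genes, so equal values are common on these arrays as a whole. GATA3, the luminal lineage factor, was equal at 5.52 on all 3 arrays, a value held by 72, 71 and 74 probe sets on the control, CFX and Mt-CFX arrays. KRT18, a luminal keratin, was equal at 8.36 at the probe set used, but the 10 named probe sets nearest to it in number all belong to genes of chromosome 3, whereas KRT18 lies on chromosome 12. Its other probe set, with 10 of 10 such neighbours on chromosome 12, read 5.72 in the control, 5.79 with CFX and 5.81 with Mt-CFX. KRT8 read 5.83 in the control, 5.57 with CFX and 5.83 with Mt-CFX, and KRT19 read 6.12, 5.80 and 5.94, so the lowest value of both keratins was with CFX. The CFX value of KRT19 was a repeated one, held by 53 probe sets. The control and Mt-CFX values of KRT8 were held by 50 and 52. The carbonic anhydrase gene CA12 was the lowest of the list, with 6.31, 6.03 and 5.68, a log2 difference of −0.63 with Mt-CFX. The control value of CA12 was held by 38 probe sets. XBP1 was the highest, at 0.83 log2 with Mt-CFX. The lists overlap, so their counts are not independent. XBP1, FOXA1, TFF1 and TFF3 are in the luminal and the secretory list, and KRT8, KRT18 and KRT19 are also among the intermediate filament genes.

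In the ETS family, 16 members other than SPDEF reached the floor. With Mt-CFX 5 were higher than in the control, 1 was lower and 10 were equal, with a median of 0.00, beside 23.9% higher, 23.2% lower and 52.9% equal over all genes. The widest was ETV5, with 5.46 in the control, 5.68 with CFX and 5.97 with Mt-CFX. ETS1 read 7.05, 7.03 and 7.28, and the epithelial member EHF was equal at 3.45, below the floor. The lower member was ETV1, at −0.17 log2. None of the 16 differed by 1.5-fold in any comparison. With Mt-CFX only 1.45% of the background genes were at least 1.5-fold higher than in the control and 1.25% lower. A list of 16 with none is near these shares, so nothing is read from it. The list of protein disulphide isomerases, the family of AGR2, also held the oxidases ERO1A and ERO1B that act on them. Of 24 genes in the list, 13 were named and 10 reached the floor, so its counts and median cover only part of that family. With Mt-CFX 3 of the 10 were lower, among them ERO1A, 4 were equal, among them ERO1B, and 3 were higher. The lowest of the list was TXNDC16 at −0.25 log2, and the list median was 0.00.

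Mesenchymal genes were compared as the group around VIM. Of 67 genes in the list, 29 were named and 23 reached the floor. With Mt-CFX 12 were lower than in the control, 4 were higher and 7 were equal, with a median of −0.0028 log2. Over all genes 23.2% were lower, 23.9% higher and 52.9% equal, with a median of 0.00. With CFX 9 were lower, 4 were higher and 10 were equal, against 15.0%, 25.8% and 59.2% over all genes. The shares over all genes are not matched to the signal of this list or of the others. Equal values on all 3 arrays held for 62.8% of genes between 4 and 5 log2 but for 10.1% between 9 and 10. This list reached up to AXL, at 10.97 log2 in the control. Whether its counts differ from those of genes of like signal was not tested. FN1, which encodes fibronectin, read 8.78 in the control, 8.52 with CFX and 8.05 with Mt-CFX, a log2 difference of −0.72. CD44, a hyaluronan receptor, read 7.65, 7.65 and 7.31, and SNAI2, a repressor of epithelial genes, read 6.22, 6.22 and 5.95. ZEB1 read 6.38, 6.42 and 6.42, and ZEB2 was equal at 5.32. TNC, the matrix protein tenascin C, went the other way between the compounds, with 7.66, 7.31 and 7.96, so that Mt-CFX was 0.65 log2 above CFX.

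Of the epithelial junction genes, 25 reached the floor. With Mt-CFX 8 were lower than in the control, 2 were higher and 15 were equal, with a median of 0.00, beside 23.2%, 23.9% and 52.9% over all genes. EVPL, which encodes the desmosome-linked protein envoplakin, read 6.39, 6.06 and 5.61, a log2 difference of −0.78 with Mt-CFX and the lowest of the list. EPCAM read 5.37 with control and CFX and 5.11 with Mt-CFX. CLDN1, a tight junction claudin, was the highest, at 0.36 log2. CDH1 and CDH2, the cadherin genes whose exchange defines the transition, had no probe set named for them here, so they could not be read. Of 29 lineage genes preset for naming, 23 had a named probe set, and ERBB2, ELF3, MUC1 and SPARC were also without.

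Of the intermediate filament genes other than VIM and the basal keratins, 13 reached the floor. With Mt-CFX 9 were lower than in the control, 0 were higher and 4 were equal, with a median of −0.070 log2, beside 23.2% lower, 23.9% higher, 52.9% equal and a median of 0.00 over all genes. KRT80 read 5.65 in the control and with CFX and 4.99 with Mt-CFX, a log2 difference of −0.66. The control and CFX values of KRT80 were held by 32 and 17 probe sets. NES, which encodes nestin, read 5.91, 5.71 and 5.33, and LMNB1, a nuclear lamin, read 8.39, 8.39 and 7.94. With CFX 4 of the 13 were lower, 0 were higher and 9 were equal, beside 15.0%, 25.8% and 59.2% over all genes. Of 24 basal markers in the list, 10 were named and 5 reached the floor. With Mt-CFX 3 of these 5 were lower and 2 were equal, with a median of −0.14 log2. The basal keratins KRT5 and KRT14 stayed below the floor on every array.

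**Figure D4:**
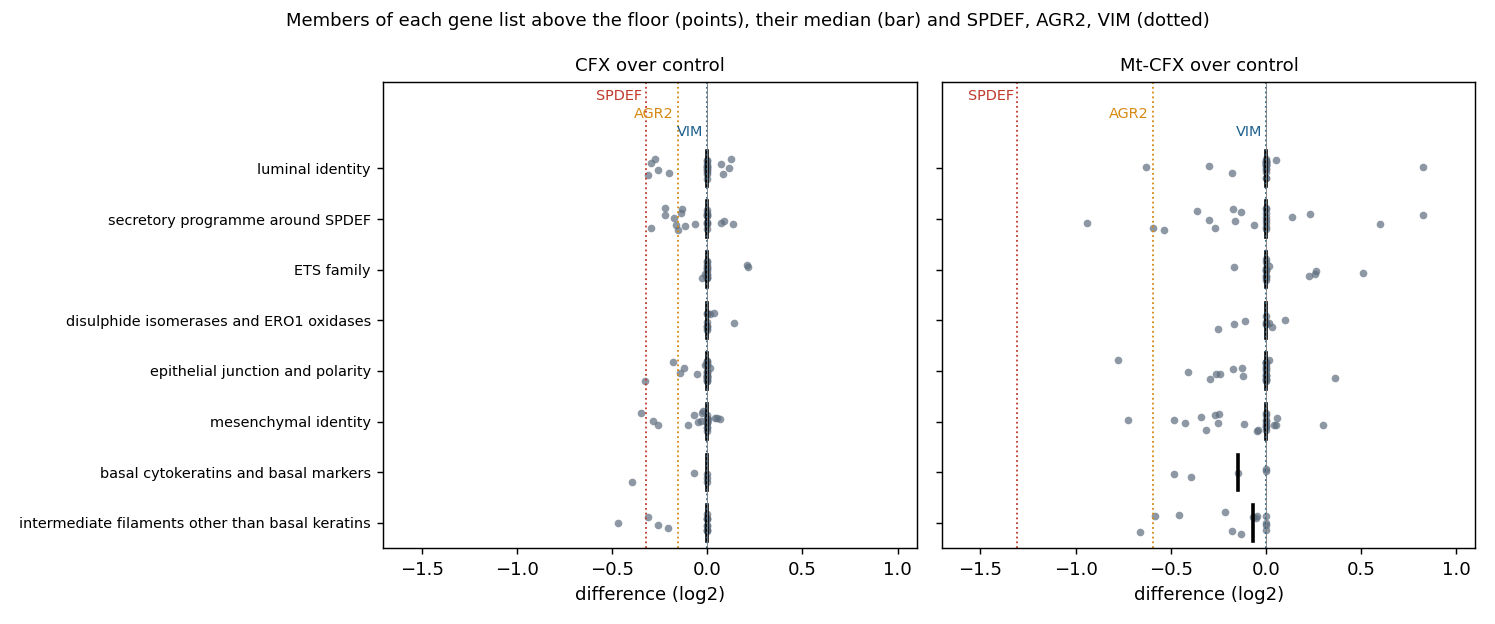
Difference in log2 (x axis) of the members of 8 gene lists above the floor (rows), for CFX over control and for Mt-CFX over control, with the list median as a bar and the values of SPDEF, AGR2 and VIM as dotted lines. No list member lies as low as SPDEF at −1.31 with Mt-CFX, XBP1 lies highest at 0.83, and most medians are at 0.00.

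The profiles most like those of SPDEF and AGR2 were found among the 8868 genes by the distance in log2 between their differences from the control, over the 3 arrays. Nearest to SPDEF was LPCAT1, an enzyme of phospholipid remodelling, at a distance of 0.12. It was followed by UHRF1, which maintains DNA methylation, at 0.16, by IGFBP4 at 0.17, TIMP3 at 0.18 and FST at 0.19. LPCAT1 had log2 differences from the control of −0.43 with CFX and −1.36 with Mt-CFX. The likeness of TIMP3 rests on 1 probe set, which read 7.09 in the control, 6.81 with CFX and 5.96 with Mt-CFX. The other TIMP3 probe set read 3.34, 3.34 and 3.06, below the floor on every array. Its difference of −0.27 log2 with Mt-CFX is therefore uncertain and does not decide the likeness.

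Nearest to AGR2 was NUP210, which encodes a nuclear pore protein, at a distance of 0.030, and then the transcription factor gene MITF at 0.034. EFEMP1 followed at 0.039, P3H2 at 0.042 and the forkhead gene FOXQ1 at 0.049. MITF read 4.90, 4.71 and 4.31, and FOXQ1 read 6.09, 5.88 and 5.49. SPDEF and AGR2 were 0.73 log2 apart by this measure, and 84 genes were nearer to SPDEF than AGR2 was. The Mt-CFX value of AGR2 lay below the floor and was held by 616 probe sets. All distances from AGR2, and the order of the genes nearest to it, are therefore uncertain. VIM has no profile of this kind at its strongest probe set, since 4021 genes of the background were equal on all 3 arrays.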

How the data were processed

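The deposited unit is log2 expression per probe set. Per the submitters' processing notes, the authors used RMA and Affymetrix Expression Console. As background, RMA corrects background, gives the arrays 1 distribution and summarises the probes of each probe set, so a difference in total RNA is not visible. Version, annotation release and build are not given in the sources used here. Of 53617 probe sets, 16098 were named through the platform annotation and matched to RefSeq by gene ID. For other genes with several probe sets, the one with the highest mean was used. The floor was the median of all values, and sizes of 2-fold and 1.5-fold were counted. Named genes were the members, preset lineage genes, list members past 1.5-fold and, for SPDEF and AGR2, the 5 genes nearest in profile. FOXA2, FOXA3, ETV1, ETV5, TXNDC16, ERO1A, ERO1B, CLDN1, NES and LMNB1 were named from the lists after their values were seen. The members and lists were chosen with earlier results of these data known. Counting at 2-fold was tested on simulated data without equal values, so the counts of higher, lower and equal values were not tested in this way. Alternatives were other probe sets and their mean, lowess re-centring with a span of 0.3, arrays set to 1 median, and other floors and gene types. The number of arrays limits precision. Python 3.11.15, numpy 2.4.6, pandas 2.3.3, statsmodels 0.14.6 and matplotlib 3.10.9 were used.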

Additional observations from a re-analysis of the deposited data

How the results depend on the processing

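SPDEF and AGR2 have 1 probe set, so only re-centring could change their values, by at most 0.025 log2 (arrays set to 1 median). SPDEF with Mt-CFX over control then lay between −1.31 and −1.29 log2 and stayed past 2-fold, while AGR2 lay between −0.59 and −0.58, and with arrays set to 1 median its −0.58 fell short of 1.5-fold. For VIM, the probe set that differed stepwise gave 0.12 for CFX over control, 0.23 for Mt-CFX over control and 0.11 for Mt-CFX over CFX, in place of 0.00, and the other 24 of 27 recomputed member values moved by less than 0.1 log2. The count of 2 genes past 2-fold with CFX became 0 when the mean had to reach the floor, 0 with the floor at the 75th percentile and 7 with genes of every type. At 1.5-fold the counts were 13 with CFX, 240 with Mt-CFX and 191 between the compounds, against 2, 50 and 34 at 2-fold. The median of the basal list with Mt-CFX, −0.14 log2, became 0.00 without a floor, and the other 95 of 96 recomputed list medians moved by less than 0.1 log2. No paired analysis was possible because each group is 1 array. No replicate could be left out for the same reason.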

Other observations

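Equal and repeated values are a property of the whole table. On the Mt-CFX array, 62 values were each held by 100 or more probe sets, and together they took 37.4% of all probe sets. The highest of them was 5.28 log2, so SPDEF lay above it in the control and with CFX and below it with Mt-CFX, and AGR2 lay below it on every array. Of the 5 genes nearest to AGR2, MITF also had a Mt-CFX value in this class, shared by 232 probe sets, as did FST among those nearest to SPDEF, shared by 125. The values of GALNT5 and ERN1 were held by no other probe set on their array. Values shared by fewer than 100 probe sets also lay above 5.28 log2, such as the KRT8 value of 5.83, held by 52 on the Mt-CFX array.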
